A study of Mus musculus with 9 samples.

Results

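The genes of cholesterol efflux and of the liver X receptor (LXR) were examined in mouse splenic dendritic cells of 3 groups, butyrate treated, trichostatin A (TSA) treated and untreated. They were taken from a list of 9 symbols: the transporters Abca1 and Abcg1, the receptors Nr1h2, Nr1h3 and Rxra, the apolipoprotein Apoe, the ubiquitin ligase Mylip, and the cholesterol ester enzymes Soat1 and Nceh1. All probe sets that the platform annotation gives to exactly 1 of these symbols were used, which found 9 probe sets of 6 genes among 20380 probe sets of 12393 genes. Abca1 had 3 probe sets, Rxra 2, and Abcg1, Nr1h3, Mylip and Apoe 1 each. Nr1h2, Soat1 and Nceh1 were not matched in the annotation used and are not analysed here. RNA came from spleen cells of mice aged 6 to 8 weeks that bore B.16 tumours expressing Flt3L, the growth factor that expands dendritic cells, and the cells were selected with beads against CD11c. There were 3 arrays each of butyrate-treated, TSA-treated and untreated cells. All 3 groups shared the tumour, the Flt3L exposure and the selection. The labels give no strain, no dose and no duration, and do not say whether mice or isolated cells were treated, or whether replicates were separate mice or cultures, so p-values measure only the spread between these samples, which may be technical.

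LXR is a nuclear receptor that senses oxidized cholesterol. It exists as LXR-alpha (Nr1h3) and LXR-beta (Nr1h2), binds DNA with the retinoid X receptor (Rxra and its relatives), and switches on genes that dispose of cholesterol. Its targets include Abca1 and Abcg1, which pass cellular cholesterol to lipoproteins, Apoe, which carries it away, and Mylip, a ubiquitin ligase that marks lipoprotein receptors for degradation and so limits uptake. In macrophages and dendritic cells this circuit also affects inflammatory gene expression. Butyrate is a small fatty acid that gut microbes produce from fibre, and TSA is a hydroxamic acid; both inhibit histone deacetylases.

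The values are deposited log2 levels made by RMA (background correction, normalization between arrays and summary over the probes of a set). Array medians ran from 6.748 to 6.817, and arrays of 1 group correlated across probe sets with r between 0.996 and 0.9982. Probe sets of 1 array have their lower quartile at 5.041 to 5.156, so levels under about that value lie near the floor and changes there are understated. Flt3 and H2-Aa, among the 13 dendritic cell genes measured, were bright in all 3 groups. Of the 13, 7 fell and 2 rose with butyrate, and 7 fell and 0 rose with TSA. Flt3 averaged 10.39 with butyrate, 10.43 with TSA and 11.02 in untreated cells, and H2-Aa averaged 14.55, 14.67 and 14.65 in the same groups. Hybridization spike-ins, controls added at the hybridization step, were 0.42 higher on the butyrate arrays and 0.05 higher on the TSA arrays than on untreated arrays. The deposited scale thus measures change relative to the bulk of genes, and on a scale set by these spike-ins every butyrate minus untreated difference is 0.42 lower.

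Of the 6 genes, 5 fell with butyrate and 5 with TSA, each represented by its brightest probe set, and none rose. Nr1h3, Abca1, Abcg1, Apoe and Mylip fell in both comparisons, and Rxra passed the test in neither. The test was limma over all 20380 probe sets with Benjamini-Hochberg adjustment, called at an adjusted p under 0.05. Among all 12393 genes, 57.2% were called with butyrate (24.5% lower and 32.7% higher) and 46.4% with TSA (20.6% lower and 25.8% higher). The median change of the 6 genes was −0.58 with butyrate and −1.0 with TSA on the log2 scale, against 0.08 and 0.03 over all genes. Over probe sets, 5 of 9 were called lower in each comparison and 0 higher by limma, also 0 higher at an unadjusted p under 0.05. Of all probe sets, 54.2% were called with butyrate (23.8% lower and 30.4% higher) and 44% with TSA (19.8% lower and 24.1% higher). Both treatments were set against the same untreated arrays, so the 2 sets of changes are not independent.

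**Figure D1:**
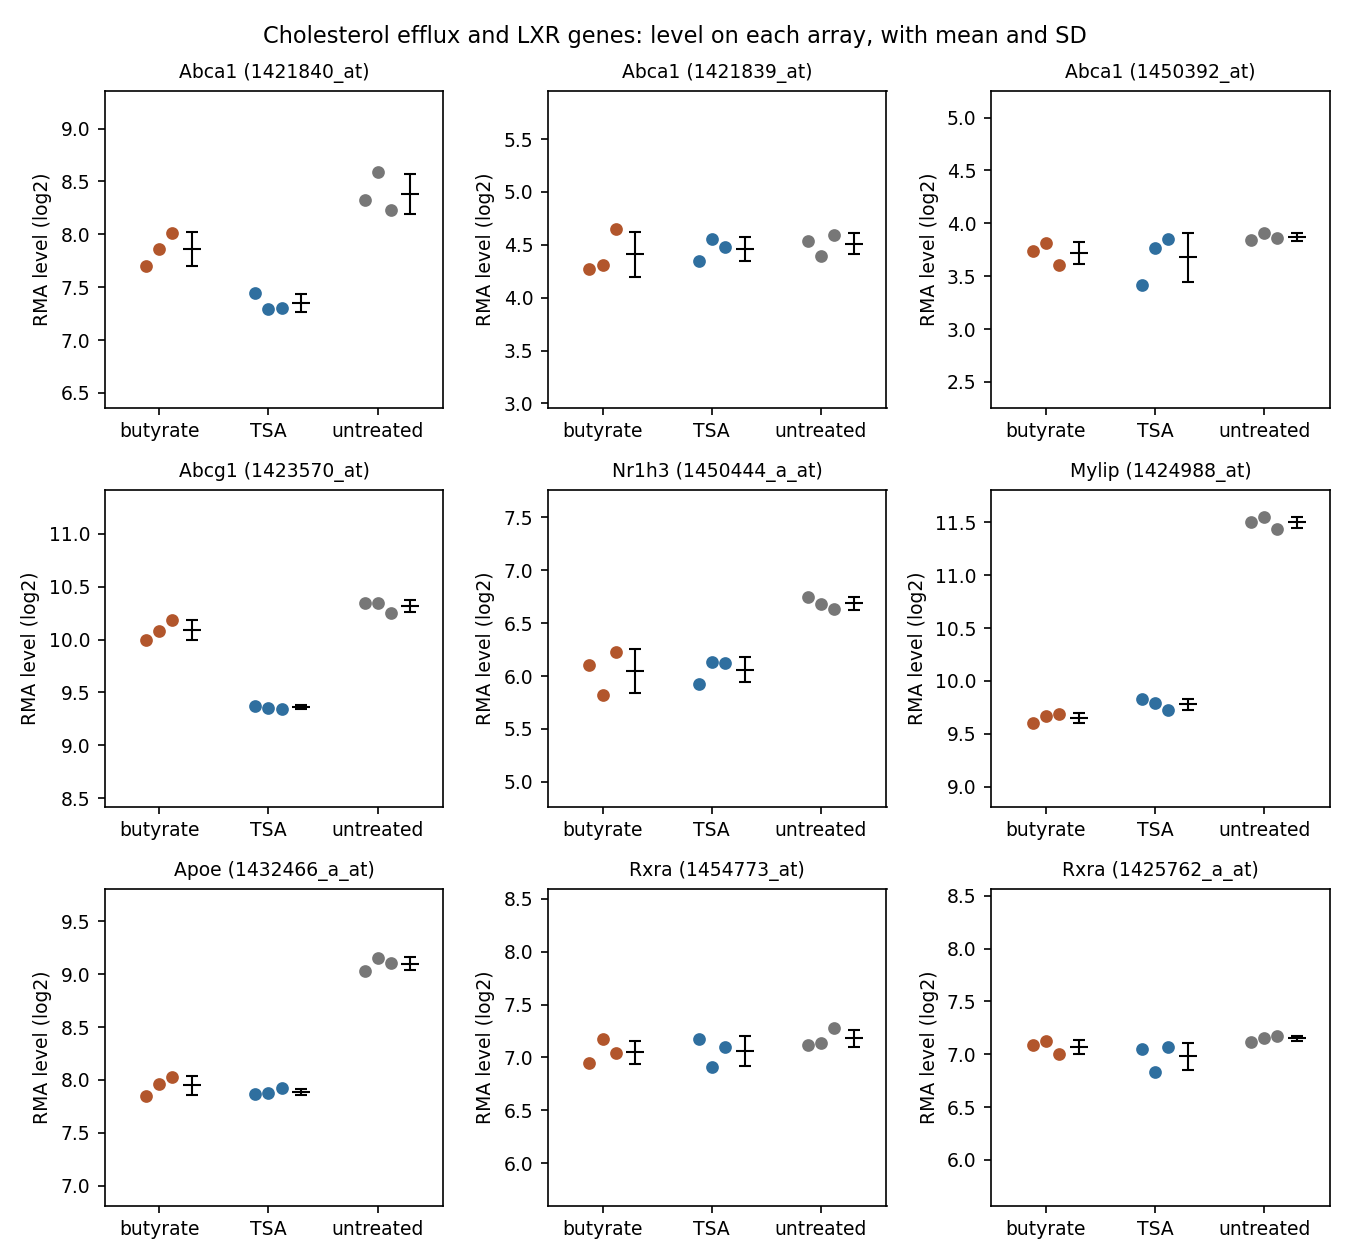
Level of each probe set on each array (log2, RMA), with butyrate, TSA and untreated arrays from left to right, the mean as a horizontal mark and the SD as a bar (n = 3). Every panel spans the same number of log2 units. The butyrate and TSA points of Mylip, Apoe and Nr1h3 lie together below the untreated points, whereas the butyrate points of Abca1 (1421840_at) and Abcg1 lie between the TSA and untreated points.

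Nr1h3, the gene of LXR-alpha, had levels of 6.10, 5.82 and 6.23 with butyrate, 5.92, 6.13 and 6.12 with TSA, and 6.75, 6.68 and 6.63 in untreated cells. All treated arrays lay below all untreated arrays, and the butyrate and TSA arrays overlapped. The mean was 6.05 ± 0.21 with butyrate, 6.06 ± 0.12 with TSA and 6.69 ± 0.061 in untreated cells (SD, n = 3 each). This was a fall of 1.55-fold with butyrate (−0.63 ± 0.10 log2, SE, limma adjusted p = 0.000409) and of 1.54-fold with TSA (−0.63 ± 0.10, limma adjusted p = 0.000501). The fall was thus larger than the spread between arrays although the level itself is modest on this array. Of all probe sets, 9.23% fell further than Nr1h3 with butyrate and 7.07% with TSA.

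Rxra, the partner with which LXR binds DNA, showed no such fall. Its probe set 1454773_at had 6.95, 7.17 and 7.04 with butyrate, 7.17, 6.91 and 7.10 with TSA, and 7.12, 7.14 and 7.28 in untreated cells. The 3 groups overlapped. The difference was −0.13 with butyrate (95% interval −0.32 to 0.06, limma adjusted p = 0.215) and −0.12 with TSA (−0.31 to 0.06, limma adjusted p = 0.282). The other probe set, 1425762_a_at, had 7.09, 7.13 and 7.0 with butyrate, 7.05, 6.83 and 7.07 with TSA, and 7.12, 7.15 and 7.17 in untreated cells, where the TSA arrays lay just below the untreated ones. It differed by −0.08 with butyrate (−0.23 to 0.08, limma adjusted p = 0.376) and by −0.17 with TSA (−0.32 to −0.01, limma adjusted p = 0.0791). Both intervals leave room for a small fall but not for one of the size seen in Nr1h3. On the hybridization spike-in scale, however, both Rxra probe sets were called lower with butyrate, by 0.55 and 0.50 on the log2 scale (limma adjusted p = 8.42e-05 and 0.00011). On that scale 14031 of all 20380 probe sets were called lower with butyrate.

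Abca1 encodes the transporter that loads cholesterol and phospholipid onto lipid-poor apolipoproteins. The mouse promoter of Abca1 is printed because it carries the kind of element LXR and RXR are known to bind, a direct repeat called DR4, and the promoter of Mylip, which fell most of the 6 genes, is printed beside it for comparison. Both run 5′ to 3′ along the gene, from 250 bases before the RefSeq transcript start to 50 after it (RefSeq, build GRCm38.p6). The Abca1 window is chr4:53159846-53160145 on the minus strand and the Mylip window chr13:45389492-45389791 on the plus strand. Capitals mark a DR4-like match and the letters TATAAA.
Abca1: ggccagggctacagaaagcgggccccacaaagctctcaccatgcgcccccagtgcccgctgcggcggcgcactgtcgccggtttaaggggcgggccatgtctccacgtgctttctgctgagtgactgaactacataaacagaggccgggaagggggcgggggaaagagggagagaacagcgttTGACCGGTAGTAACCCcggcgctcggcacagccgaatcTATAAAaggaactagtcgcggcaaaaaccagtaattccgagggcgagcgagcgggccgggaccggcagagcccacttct
Mylip: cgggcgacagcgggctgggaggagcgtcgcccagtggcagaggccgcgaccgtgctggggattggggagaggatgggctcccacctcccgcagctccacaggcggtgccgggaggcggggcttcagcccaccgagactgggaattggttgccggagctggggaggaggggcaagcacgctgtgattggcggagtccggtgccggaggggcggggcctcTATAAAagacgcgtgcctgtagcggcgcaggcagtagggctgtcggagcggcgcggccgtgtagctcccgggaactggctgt

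The motif searched on both strands was NGGTNA, then NNNN, then NGGTNA again, a loose form of the DR4 repeat that includes its strict form, in which both copies read AGGTCA. In the Abca1 window it matched 67 to 52 bases before the start, on the strand opposite to the one printed, where it reads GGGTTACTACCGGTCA. The loose form occurs in 0.718% of 32851 mouse promoter windows of the same length and the strict form in 5 of them. The letters TATAAA, searched on both strands and not overlapping the repeat, lie 29 to 24 bases before the start in Abca1 and 32 to 27 bases before it in Mylip, and occur in 13.6% of windows. Windows were found for 8 of the 9 listed symbols, some with several starts, and not for Abcg1. Among them the loose repeat matched in Abca1 alone. A match is a description of letters and does not show binding in these cells.

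The brightest Abca1 probe set, 1421840_at, had levels of 7.70, 7.86 and 8.01 with butyrate, 7.44, 7.29 and 7.30 with TSA, and 8.32, 8.59 and 8.23 in untreated cells. The 3 groups did not overlap, with TSA lowest and butyrate in between. With butyrate Abca1 was 1.44-fold lower (−0.52 ± 0.10 log2, SE, limma adjusted p = 0.00184) and with TSA 2.05-fold lower (−1.03 ± 0.10, limma adjusted p = 1.88e-05). The other probe sets, 1421839_at and 1450392_at, averaged 4.46 and 3.76 over all arrays, below the lower quartile of every array, and were not called. They differed by −0.10 and −0.15 with butyrate and by −0.05 and −0.19 with TSA (limma adjusted p between 0.17 and 0.772). The fall of Abca1 therefore rests on 1 probe set, and the dim ones neither share it nor reach a level at which a fall of that size would be seen clearly.

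Abcg1, which moves cholesterol towards high density lipoproteins, had levels of 10, 10.08 and 10.19 with butyrate, 9.37, 9.35 and 9.34 with TSA, and 10.35, 10.35 and 10.25 in untreated cells. The groups did not overlap, and the butyrate arrays lay close below the untreated ones. The fall was 1.17-fold with butyrate (−0.23 ± 0.059 log2, SE, limma adjusted p = 0.00823) and 1.95-fold with TSA (−0.96 ± 0.059, limma adjusted p = 5.76e-07). With butyrate 22% of all probe sets fell further than Abcg1, and with TSA 3.16% did.

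Apoe, the lipoprotein component that accepts and carries effluxed cholesterol, had levels of 7.85, 7.96 and 8.03 with butyrate, 7.87, 7.88 and 7.92 with TSA, and 9.03, 9.15 and 9.11 in untreated cells. The treated arrays overlapped with each other and lay well below the untreated ones. The fall was 2.22-fold with butyrate (−1.15 ± 0.059 log2, SE, limma adjusted p = 1.26e-07) and 2.31-fold with TSA (−1.21 ± 0.059, limma adjusted p = 1.48e-07).

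Mylip showed the largest change among the 6 genes in both comparisons. Its levels were 9.60, 9.67 and 9.69 with butyrate, 9.83, 9.79 and 9.73 with TSA, and 11.50, 11.55 and 11.44 in untreated cells. It was 3.60-fold lower with butyrate (−1.85 ± 0.054 log2, SE, limma adjusted p = 5.56e-09) and 3.28-fold lower with TSA (−1.71 ± 0.054, limma adjusted p = 1.58e-08). Only 0.893% of all probe sets fell further with butyrate and 0.618% with TSA. The apolipoprotein E receptor Lrp8, a substrate of MYLIP, fell by 1.14 ± 0.060 with butyrate and by 0.94 ± 0.060 with TSA (limma adjusted p = 1.43e-07 and 7.17e-07). Vldlr, also a substrate, was dim and differed by 0.21 ± 0.074 with butyrate (limma adjusted p = 0.0399) on the deposited scale. With TSA it differed by −0.01 ± 0.074 (limma adjusted p = 0.958). Its other probe sets differed by 0.01, 0.19 and 0.21 with butyrate (limma adjusted p = 0.917, 0.0882 and 0.144) and were called with neither treatment. The butyrate values of Vldlr are smaller than the 0.42 by which butyrate differences are lower on the hybridization spike-in scale.

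**Figure D2:**
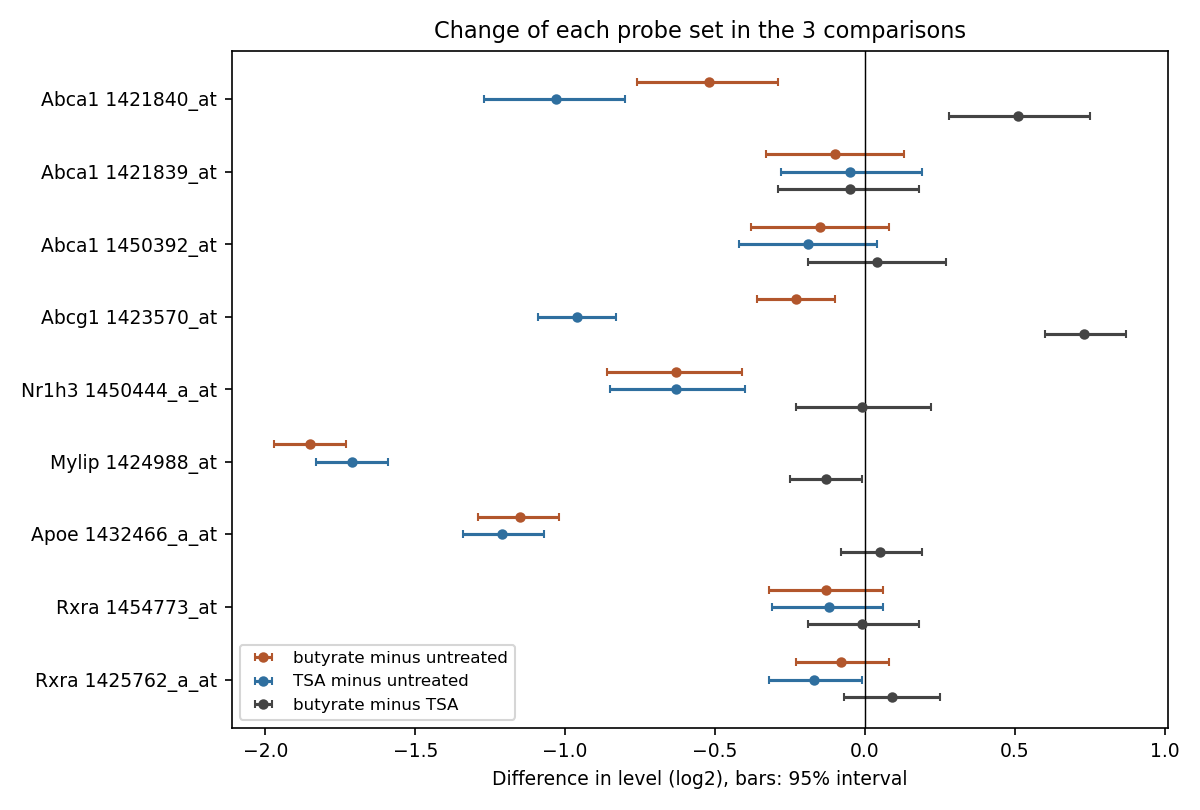
Difference in level of each probe set in the 3 comparisons (log2), with points for the estimate and bars for its 95% interval from limma; butyrate minus untreated is drawn above TSA minus untreated, and butyrate minus TSA lowest. For Abca1 (1421840_at) and Abcg1 the butyrate minus TSA interval lies above 0, at 0.28 to 0.75 and 0.60 to 0.87, and for Apoe and Nr1h3 it includes 0.

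Set directly against each other, the treatments differed in the 2 transporters. Abcg1 was 1.66-fold higher with butyrate than with TSA (0.73 ± 0.059 log2, SE, limma adjusted p = 3.49e-05) and Abca1 (1421840_at) 1.43-fold higher (0.51 ± 0.10, limma adjusted p = 0.005). Of the 6 genes, 2 were called higher and 0 lower by limma, with 1 of the 9 probe sets, that of Mylip, lower at an unadjusted p under 0.05. Among all genes 33.5% were called, 14.3% higher and 19.1% lower, and among all probe sets 30.3%, 12.5% higher and 17.7% lower. Of all probe sets, 99.7% had a lower butyrate minus TSA difference than Abcg1 and 98.7% a lower one than Abca1. Nr1h3 differed by −0.01 (95% interval −0.23 to 0.22), Apoe by 0.05 (−0.08 to 0.19) and Mylip by −0.13 (−0.25 to −0.01, limma adjusted p = 0.0909). The arrays of Mylip did not overlap between butyrate and TSA, but the difference missed the threshold. The 2 Rxra probe sets differed by −0.01 (−0.19 to 0.18) and 0.09 (−0.07 to 0.25). The doses are not given, so these values are not matched by dose.

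The order of the treatments depended on the scale of the arrays. On the hybridization spike-in scale Abcg1 was still higher with butyrate than with TSA, by 0.37 (limma adjusted p = 0.00185), but Abca1 was not called (0.15, limma adjusted p = 0.25). On that scale Mylip, Nr1h3 and Apoe were called lower with butyrate than with TSA, at −0.50, −0.37 and −0.31. So were 15129 of all 20380 probe sets. On a scale set by poly-A spike-ins (SD up to 0.31 within a group), neither Abcg1 (0.38, limma adjusted p = 0.132) nor Abca1 (0.16, limma adjusted p = 0.493) was called. Against untreated cells the falls of Abca1, Abcg1, Nr1h3, Apoe and Mylip were called on all 3 scales with either treatment. With butyrate the fall of Abcg1 was 0.65 on the log2 scale with hybridization spike-ins and 0.57 with poly-A spike-ins, and that of Abca1 0.94 and 0.87. Among all probe sets, 56.1% of the butyrate calls against untreated cells were rises on the deposited scale, 8.57% on the hybridization scale and 12.3% on the poly-A scale, and the median butyrate change was 0.072, −0.348 and −0.274.

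**Figure D3:**
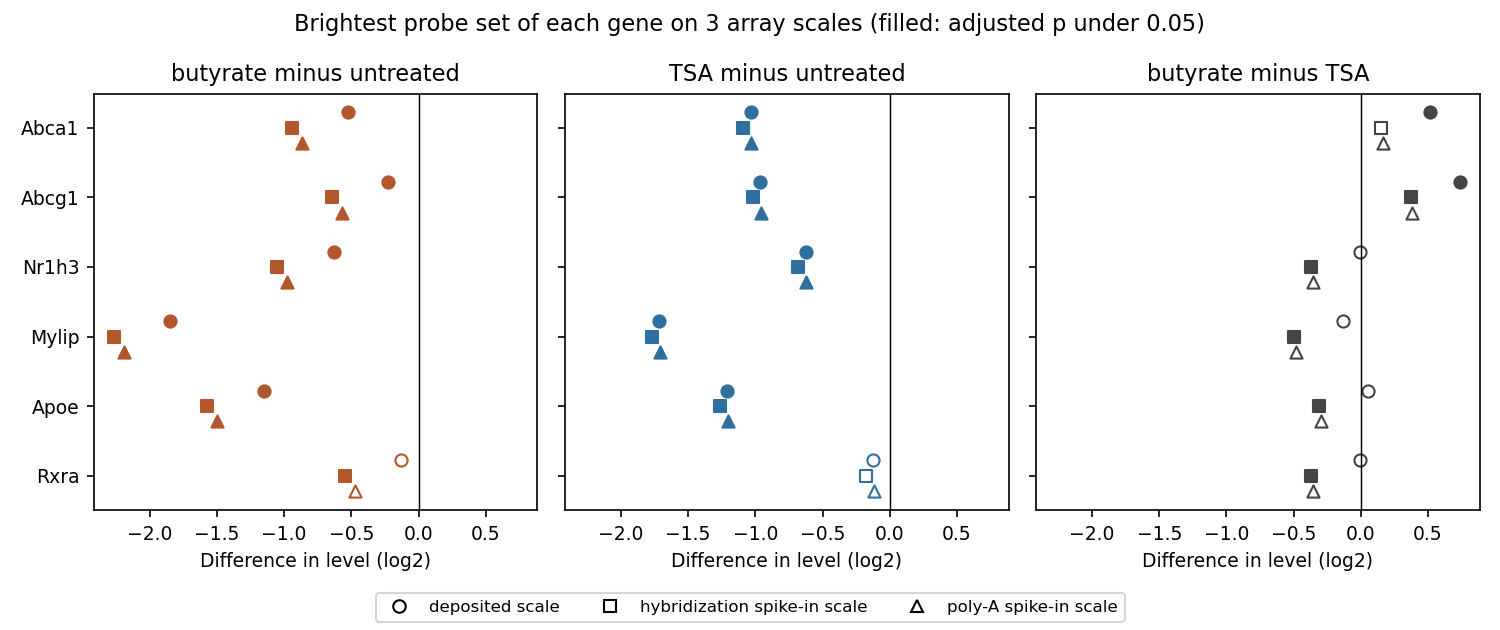
Difference in level (log2) of the brightest probe set of each gene on the deposited scale (circles), the hybridization spike-in scale (squares) and the poly-A spike-in scale (triangles), filled where the adjusted p is under 0.05. The TSA minus untreated values hardly move, the butyrate values shift to lower ones, and in butyrate minus TSA only Abca1 and Abcg1 stay on the right of 0 on all 3 scales.

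Other known LXR targets moved in both directions, with more falls than rises. Of 16 measured, 8 fell and 4 rose with butyrate (all genes: 24.5% and 32.7%). With TSA 10 fell and 1 rose (all genes: 20.6% and 25.8%). The medians were −0.14 with butyrate and −0.44 with TSA, against 0.08 and 0.03 over all genes. Lpl, which releases fatty acids from lipoproteins, fell by 2.68 ± 0.11 with butyrate and by 2.46 ± 0.11 with TSA (log2, SE, limma adjusted p = 2.66e-08 and 8.25e-08). Cd5l, a secreted protein of macrophages, fell by 1.75 ± 0.081 and 1.66 ± 0.081, and the lipase cofactor Apoc2 by 1.43 ± 0.073 and 1.6 ± 0.073 in the same order. The fatty acid synthase Fasn fell by 1.51 ± 0.055 and 0.95 ± 0.055. The phospholipid transfer protein Pltp fell by 0.48 ± 0.061 with butyrate and by 1.0 ± 0.061 with TSA, and was higher with butyrate than with TSA on the deposited scale (0.51, limma adjusted p = 0.000265). Srebf1, the lipid synthesis regulator that LXR induces, differed by −0.10 ± 0.059 with butyrate (limma adjusted p = 0.169) and fell slightly with TSA, by 0.17 ± 0.059 (limma adjusted p = 0.0341). That TSA fall was not called on the hybridization or the poly-A scale (limma adjusted p = 0.0569 and 0.784). Scd1, a fatty acid desaturase named after its values were seen, went the other way and rose by 1.09 ± 0.060 with butyrate and by 0.36 ± 0.060 with TSA (limma adjusted p = 2.14e-07 and 0.000677). Its butyrate rise was also called on both spike-in scales, and its TSA rise was not called on the poly-A scale (limma adjusted p = 0.236). Lpcat3, a phospholipid remodelling enzyme, was 0.28 ± 0.068 higher with butyrate on the deposited scale, and on neither spike-in scale was it called higher. With butyrate 13 of the 16 were called lower and 1 higher on the hybridization scale, and 8 lower and 1 higher on the poly-A scale. Among all 20380 probe sets, 14031 were called lower and 1315 higher with butyrate on the hybridization scale, and 5636 and 794 on the poly-A scale. With TSA 4099 were called lower and 3471 higher on the hybridization scale, and 1809 and 1842 on the poly-A scale. These totals stand beside the spike-in counts of the lists below.

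Nuclear receptors related to LXR moved in both directions. Of 15 measured, 2 fell and 6 rose with butyrate (all genes: 24.5% and 32.7%). With TSA 2 fell and 3 rose (all genes: 20.6% and 25.8%). The butyrate majority turned on the hybridization scale, with 8 lower and 3 higher, and on the poly-A scale 2 were lower and 3 higher. Pparg, the lipid-sensing receptor that induces Nr1h3 in macrophages, fell by 2.03 ± 0.088 with butyrate and fell by 1.62 ± 0.088 with TSA (log2, SE, limma adjusted p = 4.17e-08 and 2.77e-07). Nr1d2, a repressor of the clock, fell by 1.10 ± 0.094 and 0.77 ± 0.094, although its dim other probe set was 0.22 higher with butyrate and 0.03 higher with TSA, the butyrate value past the threshold (limma adjusted p = 0.0159). The vitamin D receptor Vdr rose by 1.61 ± 0.088 with butyrate and 1.0 ± 0.088 with TSA, and the immediate early receptor Nr4a1 by 1.85 ± 0.077 and 0.58 ± 0.077. Rxrb, another partner of LXR, was 0.18 ± 0.062 higher with butyrate (limma adjusted p = 0.0303), a call that turned to −0.24 on the hybridization scale, and differed by −0.05 ± 0.062 with TSA.

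Coregulators through which LXR recruits or releases chromatin enzymes moved both ways on the deposited scale. Of 13 measured, 6 fell and 3 rose with butyrate (all genes: 24.5% and 32.7%). With TSA 5 fell and 4 rose (all genes: 20.6% and 25.8%). On the spike-in scales no rise with butyrate was called by limma, nor at an unadjusted p under 0.05, with 10 lower on the hybridization scale and 6 on the poly-A scale. With TSA 6 were lower and 3 higher on the hybridization scale, and 1 lower and 1 higher on the poly-A scale. Crebbp, an acetyltransferase, fell by 0.79 ± 0.069 with butyrate and by 0.45 ± 0.069 with TSA, and the coactivators Ncoa6 and Ncoa3 by 0.66 ± 0.048 and 0.60 ± 0.050 with butyrate and by 0.32 ± 0.048 and 0.55 ± 0.050 with TSA. Ppargc1b rose by 0.57 ± 0.069 with each on the deposited scale, and the butyrate value was not called on either spike-in scale (0.15 and 0.22). Hdac3, the deacetylase of the corepressor complex, was 0.28 ± 0.050 higher with butyrate (limma adjusted p = 0.000831), which became −0.14 on the hybridization scale, and 0.30 ± 0.050 higher with TSA (limma adjusted p = 0.000687). With TSA the changes of Crebbp, Ncoa6 and Hdac3 were not called on the poly-A scale (limma adjusted p = 0.106, 0.343 and 0.385).

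Receptors that bring lipoproteins and modified lipids into the cell fell in 7 of 11 cases with butyrate and 7 of 11 with TSA, with 2 and 1 rising and medians of −0.52 and −0.73. Over all genes 24.5% fell and 32.7% rose with butyrate, and 20.6% fell and 25.8% rose with TSA. The scavenger receptor Cd36 fell by 2.41 ± 0.072 with butyrate and by 1.46 ± 0.072 with TSA (log2, SE, limma adjusted p = 6.58e-09 and 1.49e-07). Cxcl16, a chemokine that also binds oxidized lipoprotein, fell by 2.04 ± 0.045 and 1.37 ± 0.045, and the scavenger receptor Msr1 by 1.20 ± 0.11 and 1.02 ± 0.11. Scarb1, the receptor for high density lipoprotein, named after its values were seen, rose by 0.94 ± 0.054 with butyrate and by 0.51 ± 0.054 with TSA (limma adjusted p = 2.86e-07 and 2.59e-05), rises also called on both spike-in scales.

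Within the cell, 3 genes of 14 in lysosomal and intracellular cholesterol transport fell with butyrate and 7 rose (all genes: 24.5% and 32.7%). With TSA 4 fell and 8 rose (all genes: 20.6% and 25.8%). The butyrate split was 8 lower and 2 higher on the hybridization scale, and 3 lower and 0 higher on the poly-A scale by limma, where 1 was higher at an unadjusted p under 0.05. Lipa, which frees cholesterol from esters in the lysosome, fell by 0.97 ± 0.058 with butyrate and by 0.87 ± 0.058 with TSA (limma adjusted p = 3.27e-07 and 9.58e-07). Npc2, which hands that cholesterol on, rose by 0.43 ± 0.043 and 0.32 ± 0.043, though with butyrate it was not called on either spike-in scale. Its partner Npc1 fell with TSA by 0.31 ± 0.050 (limma adjusted p = 0.00052) and differed by −0.11 ± 0.050 with butyrate (limma adjusted p = 0.097). With TSA neither the Npc2 nor the Npc1 change was called on the poly-A scale (limma adjusted p = 0.326 and 0.381). The sterol carriers Stard5 and Scp2 rose by 0.77 ± 0.045 and 0.62 ± 0.050 with butyrate and by 0.64 ± 0.045 and 0.56 ± 0.050 with TSA, while Stard4 fell by 1.43 ± 0.12 and 0.91 ± 0.12. With butyrate the rises of Stard5 and Scp2 were smaller on the hybridization scale (0.35 and 0.20) and not called on the poly-A scale (limma adjusted p = 0.0832 and 0.281).

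Of 13 genes of neutral lipid storage, 3 fell and 5 rose with butyrate (all genes: 24.5% and 32.7%). With TSA 3 fell and 1 rose (all genes: 20.6% and 25.8%). With butyrate no rise was called on either spike-in scale by limma, nor at an unadjusted p under 0.05, with 9 and 3 lower. The lipid droplet coat Plin2 fell by 1.06 ± 0.054 with butyrate and by 1.07 ± 0.054 with TSA, and the ester hydrolase Lipe by 0.57 ± 0.079 and 0.69 ± 0.079. Mgll, a monoacylglycerol lipase whose dim probe sets vary, fell with TSA by 0.48 ± 0.074 and differed by −0.06 ± 0.074 with butyrate, and the triglyceride enzyme Dgat2 rose with butyrate by 0.45 ± 0.083 on its brightest probe set and the deposited scale only (0.04 and 0.11 on the spike-in scales). Of 10 further ABC transporters, 5 fell and 4 rose with butyrate, and 5 fell and 2 rose with TSA. With butyrate 6 were lower and 1 higher on the hybridization scale, and 5 lower and 0 higher on the poly-A scale by limma, also 0 higher at an unadjusted p under 0.05. Abca7, a relative of Abca1, fell by 0.21 ± 0.051 and 0.42 ± 0.051. Abcb1b fell by 1.43 ± 0.062 and 0.81 ± 0.062 and Abcb1a by 0.71 ± 0.12 and 0.67 ± 0.12, Abcg3 fell by 0.34 ± 0.12 and 0.50 ± 0.12, and Abca3, a lipid transporter of lamellar bodies in lung, rose by 0.71 ± 0.046 and 0.66 ± 0.046. The butyrate rise of Abca3 was 0.29 on the hybridization scale and not called on the poly-A scale (0.37, limma adjusted p = 0.145). With TSA the falls of Mgll, Abca7 and Abcg3 were not called on the poly-A scale (limma adjusted p = 0.0845, 0.146 and 0.0641).

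Enzymes that make or clear oxysterols, the ligands of LXR, gave 2 falls and 2 rises among 8 genes with butyrate (all genes: 24.5% and 32.7%). The numbers were the same with TSA (all genes: 20.6% and 25.8%). On the spike-in scales 6 and 2 were lower with butyrate and 0 higher by limma, also 0 higher at an unadjusted p under 0.05. Ch25h, which makes 25-hydroxycholesterol, averaged 5.23 with butyrate, 5.17 with TSA and 5.29 in untreated cells, near the floor, and was not called (limma adjusted p = 0.368 and 0.0775). Hsd3b7 fell by 0.63 ± 0.074 with butyrate and by 0.73 ± 0.074 with TSA. The dim genes Cyp46a1 and Cyp7b1 changed by 0.43 ± 0.083 and −0.27 ± 0.079 with butyrate and by 0.54 ± 0.083 and −0.38 ± 0.079 with TSA, and the butyrate value of Cyp46a1 was 0.01 and 0.09 on the spike-in scales, not called. Cyp7a1 was 0.29 ± 0.065 higher with butyrate, which the spike-in scales turned to −0.13 and −0.06. Of 4 genes of the ubiquitin system around MYLIP, 1 fell and 1 rose with butyrate and 1 fell and 2 rose with TSA. Ube2d3 fell by 0.40 ± 0.053 and 0.25 ± 0.053 on its brightest probe set, with others differing in sign, Ube2d2a rose by 0.17 ± 0.055 and 0.21 ± 0.055, and Usp8 rose with TSA by 0.38 ± 0.062 and differed by 0.14 ± 0.062 with butyrate. The rise of Ube2d2a with butyrate and the value of Usp8 turned to −0.25 and −0.28 on the hybridization scale. With TSA neither rise was called on the poly-A scale (limma adjusted p = 0.645 and 0.203). The TSA falls of Cyp7b1 and Ube2d3 were not called there either (limma adjusted p = 0.219 and 0.556).

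**Figure D4:**
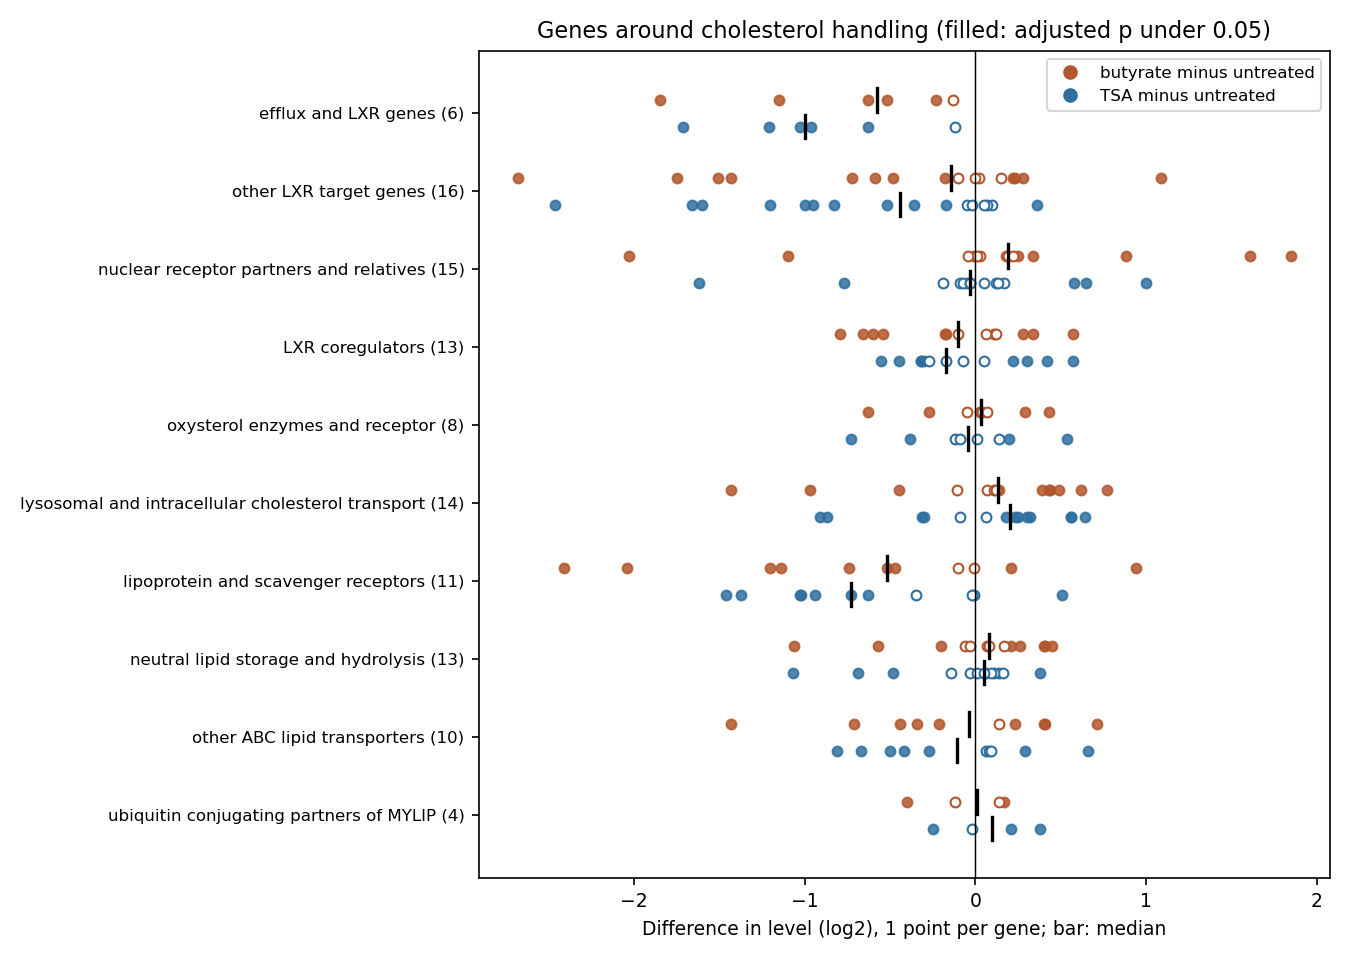
Difference from untreated cells (log2) of each measured gene of the 6 efflux and LXR genes and of 9 related lists, with the number measured in brackets, butyrate above TSA in each row, points filled where the adjusted p is under 0.05 and a bar at the median. The LXR targets and the lipoprotein and scavenger receptors have butyrate medians of −0.14 and −0.52 and TSA medians of −0.44 and −0.73; the coregulators and the ABC transporters also have medians below 0 with both treatments, and all 9 lists hold points on both sides of 0.

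Apoe, Nr1h3 and several of the LXR targets are strongly expressed in macrophages, which a selection on CD11c can carry along. Macrophage and monocyte markers fell with the same treatments, in 14 of 17 cases with butyrate and 15 of 17 with TSA, with 1 rising in each and medians of −0.64 and −0.62. Their summed levels on the linear scale ran from 7852 to 8329 with butyrate, from 8199 to 8845 with TSA and from 13361 to 14259 in untreated cells. Spic, the transcription factor of red pulp macrophages, fell by 2.89 ± 0.092 with butyrate and fell by 2.73 ± 0.092 with TSA, and Csf1r by 1.31 ± 0.064 and 1.14 ± 0.064, whereas the dim Cd163 rose by 0.27 ± 0.090 with TSA (limma adjusted p = 0.0344) and differed by 0.06 ± 0.090 with butyrate (limma adjusted p = 0.617). No marker is at 0, a value that RMA does not give. Mertk stands in both the marker list and the list of LXR targets, and Marco in the marker list and that of scavenger receptors. In a bulk sample fewer cells of a type and less RNA per cell cannot be told apart, and the part of these markers in the falls of Apoe, Nr1h3 and the other genes was not tested. Over all genes 24.5% fell and 32.7% rose with butyrate, and 20.6% fell and 25.8% rose with TSA, beside these and the following marker counts. Of 13 dendritic cell genes, 7 fell and 2 rose with butyrate, and 7 fell and 0 rose with TSA. B cell markers fell in 2 of 9 cases with butyrate and 5 of 9 with TSA, T cell markers in 2 and 5 of 8, NK cell markers in 3 and 4 of 7, neutrophil markers in 4 and 6 of 9, plasmacytoid dendritic cell markers in 6 and 5 of 7, erythroid markers in 2 and 3 of 4 and B.16 melanoma markers in 2 and 2 of 7. With butyrate 3 neutrophil, 2 melanoma, 1 NK cell, 1 plasmacytoid and 1 erythroid marker rose, and with TSA 1 melanoma marker rose. The NK cell sum was 1128 to 1204 with butyrate, 1953 to 2259 with TSA and 3787 to 3985 in untreated cells, and the melanoma sum 436 to 504, 517 to 564 and 1583 to 1786 in the same groups. The melanoma list has a median of −0.02 with butyrate, and its member Gpnmb fell by 3.61 ± 0.14 with butyrate and fell by 2.77 ± 0.14 with TSA. The B cell sum was 8432 to 8864 with butyrate, 7603 to 7862 with TSA and 8000 to 9123 in untreated cells. The neutrophil sum was 39957 to 40492, 32750 to 34108 and 41174 to 42384 in the same groups. Lower sums with both treatments were also seen for plasmacytoid dendritic cells, at 4343 to 4662, 4799 to 4853 and 7883 to 8190. So it was for T cells (733 to 745, 641 to 696 and 974 to 1097) and erythroid cells (4841 to 5054, 3941 to 4082 and 6295 to 6872). The dendritic cell sum was 88056 to 89283, 92875 to 94469 and 94945 to 97140. The part of these markers in the results was not tested.

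Across the 9 arrays, the genes whose levels followed those of Abca1 most closely among 3494 genes with group means at least 0.5 log2 units apart were Spg7 (Pearson r = 0.995), Snx20 (0.983) and Capg (0.98). For Abcg1 they were Clic4 (0.988), Vegfa (0.988) and Cdc42ep3 (0.984). Like Abcg1, these lay closer to untreated cells with butyrate than with TSA, Vegfa for example at −0.15 with butyrate and −0.65 with TSA. For Apoe they were Shisa5 (0.998), Mrpl54 (0.997) and Rela (0.996), and for Nr1h3 Chst7 (0.987), Arhgef10l (0.975) and St7 (0.973). These correlations are descriptions over 9 arrays of 3 groups and are set largely by the group means.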

How the data were processed

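Biotin-labelled total RNA of 9 samples was measured on 1-colour Affymetrix arrays. The deposited values are log2 levels; the submitters' processing notes name RMA as the method by which the authors made them, with no program version. The table held 22690 probe sets: 20380 named by 1 symbol, 691 by several, 1555 unnamed here, and 64 controls. Symbols came from the platform annotation, checked by gene identifier against GRCm38.p6 names (20351 matched, 0 changed). The members and gene lists were chosen with earlier results of these data known.

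All 9 arrays and 20380 probe sets entered a single fit of 3 group means in limma 3.58.1 in R 4.3.3 (6 residual and 3.76 prior degrees of freedom), without a filter on level. It was tested on simulated data. Benjamini-Hochberg adjustment ran over all 20380 probe sets of a comparison. All probe sets of the members are given; other genes are represented by the probe set with the highest mean. Named genes are the members, up to 4 called genes of each list with the largest change, further genes fixed by name (Ncor1 among them, not analysed here), and the 3 genes most correlated with each of Abca1, Abcg1, Apoe and Nr1h3; Vldlr, Lpcat3, Gpnmb, Spic, Csf1r, Cd163, Flt3, H2-Aa, Mertk and Marco are list genes named beside them, as are Scd1 and Scarb1, chosen after their values were seen. Each log2 difference carries its standard error (3 arrays a group); the number of arrays limits the precision. Alternatives were 7 hybridization and 12 poly-A spike-in probe sets as the scale, a second quantile normalization, a level filter, 1 probe set per gene, an intensity trend, 2 groups only, a replicate block and leaving out each array. No pair of arrays was identical.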

Additional observations from a re-analysis of the deposited data

Results flagged for a closer look

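The hybridization spike-in probe sets, which are outside the expression measurement, averaged 11.20 ± 0.052 on the butyrate arrays, 10.84 ± 0.025 on the TSA arrays and 10.78 ± 0.091 on the untreated arrays (log2, SD, n = 3 each). They are listed here because this is a signal in probe sets that are not themselves tested, above its level in the untreated samples. They serve only as the base of the hybridization spike-in scale. The poly-A spike-ins averaged 9.16 ± 0.11, 8.80 ± 0.16 and 8.81 ± 0.31 in the same groups. Groups of 3 arrays are too small for the search for single outlying arrays.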

How the results depend on the processing

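The count of called probe sets among the 9 was 5 with butyrate against untreated, 5 with TSA against untreated and 2 in butyrate against TSA without any 1 array. Of all probe sets, 9849 to 10921, 7988 to 8944 and 4604 to 6290 were called in the same order. Deviations of samples with the same replicate number correlated from −0.101 to 0.33 (over 0.1 in 2 of 9 pairs), and those with different numbers from −0.336 to 0.164 (3 of 18). The 2 were pairs of untreated and TSA arrays (0.219 and 0.33), so with 3 arrays a group this does not settle whether the number is a pairing. The replicate block gave the same counts of 5, 5 and 2 and called 10773, 8745 and 5672 of all probe sets. Of 441 alternative values of the probe sets, 423 kept the call, and its direction where called. Among these, values not called could still change sign. On the hybridization spike-in scale 9 were called with butyrate against untreated, all lower, where 15346 of all probe sets were called (14031 lower). In butyrate against TSA 8 were called (1 higher, 7 lower), where 15278 of all probe sets were called (15129 lower). There the butyrate minus TSA values of Apoe, Rxra (1425762_a_at) and Abca1 (1450392_at), none called as deposited, turned to −0.311, −0.274 and −0.322. On the poly-A scale 0 of the 9 were called in butyrate against TSA (limma, adjusted p under 0.05), and 2 at an unadjusted p under 0.05. Of all probe sets, 4777 were called there in that comparison (30 higher and 4747 lower). Against untreated cells, 6430 of all probe sets were called on the poly-A scale with butyrate and 3651 with TSA. With 1 probe set per gene, fewer features were tested, and 7241 and 5866 were called. Probe sets above the median level alone called Mylip in butyrate against TSA (limma adjusted p = 0.0373), as did the intensity trend (0.0283), and Rxra (1425762_a_at) with TSA (0.0408). Of 1436 alternative values of the other named genes, 1362 kept the call, and its direction where called. With butyrate against untreated, Cyp7a1 turned to −0.134 and −0.0599 on the hybridization and poly-A scales, Hdac3 to −0.138 and −0.0639, Rxrb to −0.237 and −0.164, and Ube2d2a to −0.249 and −0.175; Usp8 turned to −0.278 on the hybridization scale. The spike-in scales shift every value of an array by the same amount; whether the spike-ins or the bulk of genes is the better base was not tested.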
